A study of Mus musculus with 29 samples.

Results

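Newly made RNA was set against total RNA in mouse fibroblasts after 4 h of activated MycER. The level of each gene in a library of RNA labelled with 4-thiouridine (4sU) was divided by its mean over 4 total RNA libraries of the same time. Of 21675 genes in the fibroblast files, 12832 (59.2%) had at least 1 FPKM (fragments per kilobase of transcript, scaled to sequencing depth) in the 4sU library or in the total RNA mean, and these genes are described here. Of them, 11875 reached 1 FPKM in both kinds of RNA. A further 699 were under 1 FPKM in 4sU and 258 under 1 FPKM in total RNA. The last 2 sets passed through their higher side alone, so their ratio had to lean that way. The genes nearest to the threshold were Podn (1.002 FPKM in 4sU) and Pvrl4 (mean of 1.002 FPKM in total RNA) just inside it, and Acsm2 (0.999 FPKM in 4sU) and Ccdc62 (mean of 0.996 FPKM in total RNA) just outside.

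The study holds 29 samples, and 18 of them are fibroblast libraries. The cells were 3T9 fibroblasts of mixed strain from mouse embryos. All carried loxP-flanked c-myc alleles (genotype c-mycflox/flox) and had been infected in culture with MycER, a Myc protein that acts only when 4-hydroxytamoxifen (OHT) is bound. No group lacked MycER, so the controls carried it too. The 0 h group (OHT_0h, n = 4) received ethanol. The 4 h, 8 h and 16 h groups (OHT_4h, OHT_8h and OHT_16h, n = 4 each) received 400 nM OHT. For newly made RNA, cells were given 300 µM 4sU for 10 min, and labelled RNA was coupled to biotin and pulled down on streptavidin beads, in 1 library at 0 h (4sU_0h) and 1 at 4 h (4sU_4h). Ribosomal RNA was removed from total RNA. Nothing in the labels says that numbered libraries came from separate cultures, so their spread may be technical.

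The steady level of an RNA is set by how fast it is made and how fast it is degraded. A short pulse of 4sU marks transcripts that are being made, so RNAs with a fast turnover are usually rich in labelled RNA relative to their total level, and stable RNAs are poor in it. Labelled RNA also holds unspliced and nuclear transcripts. Myc is a transcription factor of growth genes, and its own mRNA and protein are short-lived.

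Libraries of total RNA resembled each other more than the 4sU library, with a Pearson r over the genes of 0.970 to 0.990 among the 4 OHT_4h libraries and of 0.850 to 0.864 between 4sU_4h and each of them. The 2 4sU libraries correlated at 0.969. The files hold no counts. In 4sU_4h, 94.1% of the values at miRNA hairpins were whole multiples (within 0.1) of a unit that gives 24.4 reads per kilobase at 1 FPKM. In the total RNA libraries of 0 h and 4 h, each with a unit of its own, 46.7% to 54.5% were. The unit of each library was the one that gave the highest percentage. Whether reads were counted or scaled differently is not given in the sources used here. FPKM summed to 142715 in 4sU_4h and to 290476 to 349437 in the OHT_4h libraries. Values near the top of the scale were also close together, since the highest total RNA mean (161 FPKM) was 1.56-fold the 100th highest, and the highest 4sU value was 1.54-fold the 100th highest. Genes past 50 FPKM in total RNA (1757) thus had little room on this scale, and their ratios spanned less. Of 12 fibroblast markers, 10 were at 1 FPKM or more in every OHT_4h library and in 4sU_4h, with Vim (vimentin) the highest. No epithelial (8) or endothelial (7) marker reached 1 FPKM there, and of 10 leukocyte markers Csf1r alone did. Library preparation differs between the kinds of RNA, and its part in any ratio below, like that of depth, counting and scaling, cannot be told apart from turnover.

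The median gene had a 4sU level of 0.483 times its total RNA level, a log2 ratio of -1.05 (FPKM + 0.5, a constant that shrinks the ratios of low genes). Ratios are given below relative to this median, and called relative ratios. From the 5th to the 95th percentile they ran from -1.12 to 1.53, a span of 6.24-fold. A gene was counted as high or low when its relative ratio was at least 2-fold and its 4sU value, shifted by the median, lay outside the range of the 4 OHT_4h libraries. By that rule 1816 genes (14.2%) were high and 933 (7.27%) were low. On the deposited scale, without the shift, 201 genes (1.57%) were at least 2-fold higher and 6703 (52.2%) at least 2-fold lower in 4sU. The median standard deviation of a gene over the OHT_4h libraries was 0.22 on the log2 scale, so a 2-fold difference exceeded the spread of total RNA for most genes. With a lone 4sU library at 4 h, the ratio has no replicate check and no p-value.

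**Figure D1:**
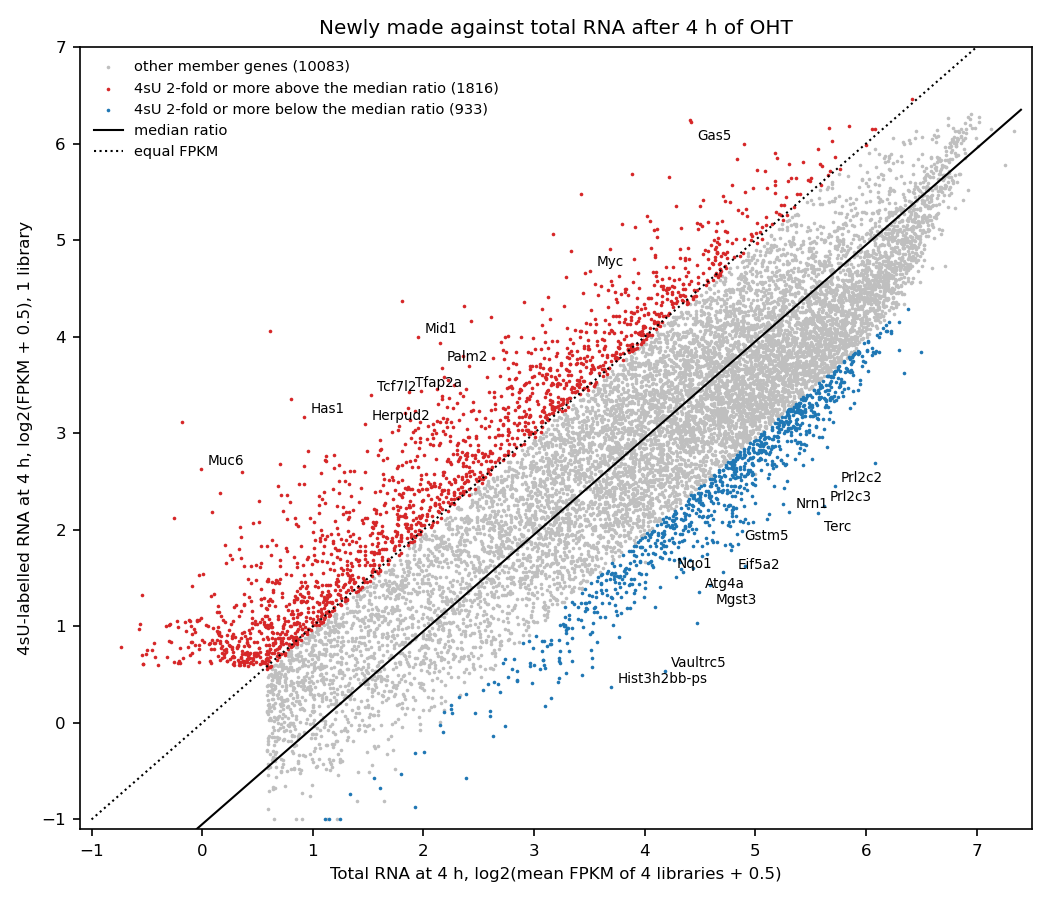
Level of each of the 12832 genes in the 4sU library (y axis, log2 of FPKM + 0.5) against its mean in the 4 total RNA libraries at 4 h of OHT (x axis, same scale). Red and blue points are the 1816 high and 933 low genes, the solid line is the median ratio and the dotted line equal FPKM. The high genes spread over the left and middle of the plot, and the cloud narrows at its upper right end.

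The highest relative ratios among genes at 5 FPKM or more in the higher kind of RNA belonged to 12 genes with values of 2.61 to 3.69. Genes at either end were named only if their 4sU value lay outside the range of the 4 OHT_4h libraries. A lack of overlap in them is thus set by the rule and is not a result. Muc6, which encodes a secreted mucin, had 0.496, 0.370, 0.683 and 0.421 FPKM in the 4 OHT_4h libraries and 5.68 in 4sU_4h. It was under 1 FPKM in every total RNA library and so qualified through its 4sU side alone. Has1, a hyaluronan synthase, had 1.45, 1.17, 1.82 and 1.15 FPKM in total RNA and 8.5 in 4sU. Gas5, a noncoding host of small nucleolar RNAs whose spliced transcript is known to be degraded during translation, had 18.8, 21.8, 22.8 and 20.1 FPKM in total RNA and 74.4 in 4sU. Gas5 thus stood 2.86 above the median on the log2 scale. The set also held Mid1 (3.09), a microtubule-binding ubiquitin ligase, Tcf7l2 (2.93), a Wnt pathway transcription factor, Palm2 (2.84), Herpud2 (2.67) and the transcription factor Tfap2a (2.61). Of the 12 genes, 7 have exons inside a gene of the opposite strand. The share over all genes was not counted, so this number cannot be called high or low. Strand use in counting is not given in the sources used here, so reads of such pairs cannot be told apart.

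At the other end, 12 genes had relative ratios of -2.60 to -1.94. Terc, the RNA template of telomerase, had 41.5, 38.8, 57.0 and 49.8 FPKM in total RNA and 4.03 in 4sU. Vaultrc5, a vault RNA made by RNA polymerase III, had 13.1, 17.5, 20.9 and 19.2 FPKM in total RNA and 0.950 in 4sU. These noncoding RNAs had the lowest relative ratios of the set (-2.33 and -2.60). Nqo1, a quinone reductase of the oxidative stress response, had 24.0, 27.1, 30.1 and 21.1 FPKM in total RNA and 2.46 in 4sU. The glutathione transferases Mgst3 (-2.11) and Gstm5 (-1.94) belonged to the same end. So did Atg4a (-2.09), a protease of autophagy, Nrn1 (-2.08) and the translation factor Eif5a2 (-1.94). Prl2c2 (-2.22) and Prl2c3 (-2.32), both proliferins, are near-identical copies between which reads can be split, so their separate values are uncertain. Hist3h2bb-ps (-2.28) was in the set as well. At 0 h the same 24 genes had relative ratios of 2.58 to 3.97 and of -3.05 to -1.53.

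Many microRNA genes had high ratios. Of 281 described here, 28 were under 1 FPKM in total RNA and 23 under 1 FPKM in 4sU, so the direction of these was largely set by the threshold. Among the 230 at 1 FPKM or more in both kinds, the median relative ratio was 0.96, with 107 (46.5%) high and 9 (3.91%) low, against 13.1% high and 7.47% low of all 11875 such genes. The values cover the annotated hairpin and so do not tell the primary transcript from processed RNA. Of the 281, 230 matched a RefSeq entry. The mature sequences of genes named here are shown to let their seeds be compared. They are credited to RefSeq on GRCm38.p6 and printed 5′ to 3′, with the seed (bases 2 to 8) in capitals.
miR-125b-5p (chr9:41581940-41581961, plus strand): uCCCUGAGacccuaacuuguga
miR-125a-5p (chr17:17830817-17830840, plus strand): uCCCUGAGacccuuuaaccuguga
let-7a-5p (chr13:48538239-48538260, minus strand): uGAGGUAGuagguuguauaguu
let-7g-5p (chr9:106178846-106178867, plus strand): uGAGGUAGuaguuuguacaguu
miR-221-3p (chrX:19146307-19146329, minus strand): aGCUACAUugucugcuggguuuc
miR-222-3p (chrX:19146901-19146923, minus strand): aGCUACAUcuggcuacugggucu
miR-31-5p (chr4:88910614-88910635, minus strand): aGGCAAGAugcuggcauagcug
miR-21a-5p (chr11:86584120-86584141, minus strand): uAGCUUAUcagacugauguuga
miR-17-5p (chr14:115043684-115043706, plus strand): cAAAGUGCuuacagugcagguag
miR-20a-5p (chr14:115044183-115044205, plus strand): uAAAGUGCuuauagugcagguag

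The miR-125 genes share the CCCUGAG seed and had high ratios. Mir125b-1 had 0.847, 0.996, 1.08 and 1.18 FPKM in total RNA and 16.2 in 4sU, or 30 reads over a hairpin of 77 bases, and its relative ratio of 4.50 was the highest in the class. Mir125a had 6.79, 12.4, 11.7 and 6.29 FPKM in total RNA and 24.1 in 4sU (2.38). The let-7 genes, with the GAGGUAG seed, act against proliferation in many tissues. All 11 lay above the median gene, from 0.54 to 1.57, and 7 counted as high. Mirlet7a-1 had 6.24, 12.8, 11.5 and 13.2 FPKM in total RNA and 12.2 in 4sU (1.20). Mirlet7g had 2.69, 3.21, 3.33 and 5.19 FPKM in total RNA and 5.12 in 4sU, on 11 reads. The neighbours Mir221 and Mir222, which share the GCUACAU seed, had relative ratios of 1.16 and 2.27. The total RNA values of Mir222 were 1.65, 3.09, 0 and 3.05 FPKM, so its ratio rests on few reads. Mir31 had 14.4, 17.1, 16.5 and 16.6 FPKM in total RNA and 29.8 in 4sU (1.91), and Mir21, listed as Mir21a in RefSeq, had 33.9, 29.6, 42.0 and 42.6 in total RNA and 40.5 in 4sU (1.18).

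Hairpins of the miR-17 cluster had a median of 0.46, against 1.20 for the let-7 genes, and their ranges overlapped. That cluster, a known Myc target, lies in exons of the host transcript Mir17hg. Mir17 and Mir20a, which share the AAAGUGC seed, had relative ratios of 0.57 and 0.64, and none of the 4 measured hairpins (0.18 to 0.64) counted as high. Mir17hg itself stood at 0.84. Over the whole class the ratio also varied with position. Among those at 1 FPKM in both kinds, the median was 0.39 for 51 hairpins inside an exon of another gene, 1.13 for 97 inside an intron and 1.27 for 52 outside other genes on their strand. Over all 281 it was 0.55, 1.18 and 1.24. Exonic hairpins also had higher total RNA (a median of 16.2 FPKM, against 2.89 and 4.55). Among hairpins at 1 to 10 FPKM in total RNA the medians were 1.04 (n = 21), 1.17 (n = 91) and 1.33 (n = 49), and 3640 protein-coding genes in that range had 0.53. Hairpins with under 10 reads in 4sU_4h (105) and with 10 or more (109) had the same median of 0.97.

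**Figure D2:**
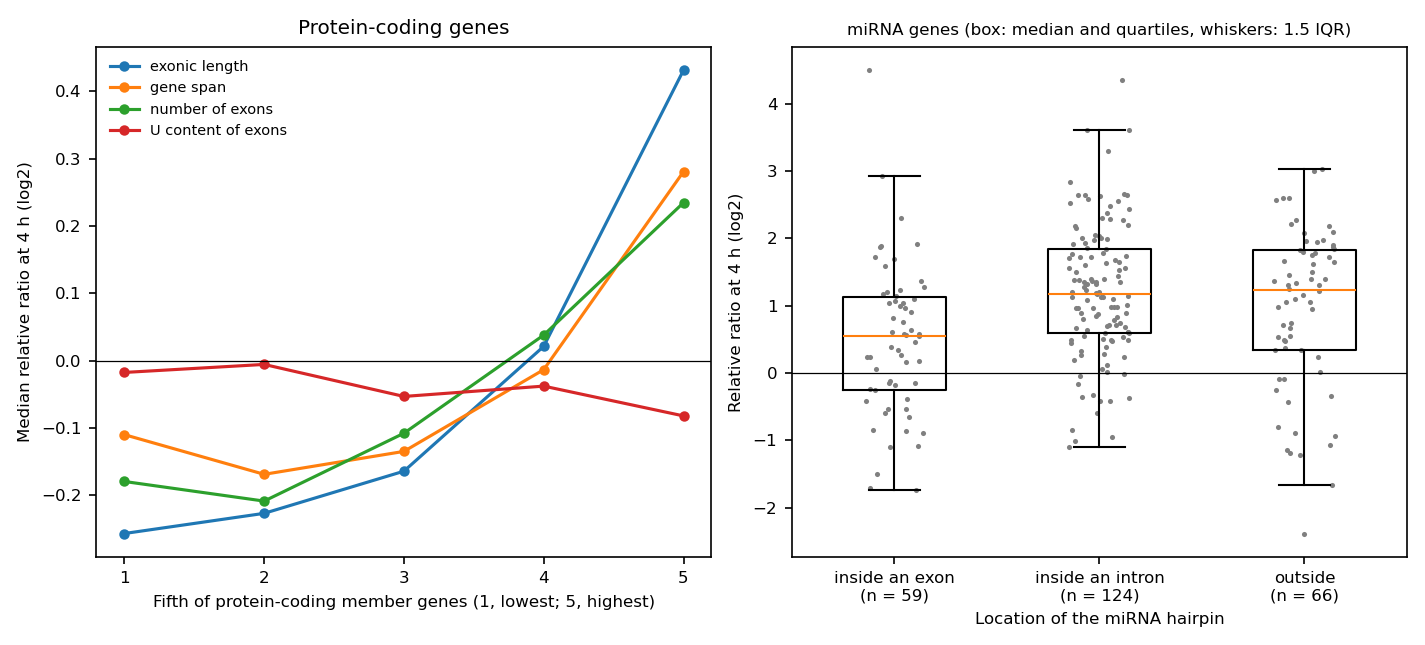
Left, the median relative ratio (y axis, log2) in 5 equal bins of 11890 protein-coding genes ordered by exonic length, gene span, exon number or U content (x axis). Right, the relative ratio of miRNA genes (y axis, log2) by the location of the hairpin. The exonic length line climbs from -0.26 to 0.43 while the U content line stays between -0.08 and -0.01, and the intronic (1.18) and outside (1.24) hairpins have a higher median than the exonic hairpins (0.55).

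Lists of noncoding and RNA-processing genes are set here beside the 14.2% high and 7.27% low of all genes. Of 10 nuclear long noncoding RNAs, 5 (50%) were high and none low (median of 1.00). Neat1, the scaffold of paraspeckles, had 16.1, 18.6, 20.0 and 8.31 FPKM in total RNA and 37.7 in 4sU (2.28). Pvt1, a noncoding gene beside Myc, had 11.3, 10.7, 14.0 and 12.7 in total RNA and 21.9 in 4sU (1.87). Malat1, a nuclear speckle RNA, stood at 0.48, with 91.1 to 109.8 FPKM in total RNA, where the scale is narrow. Of 16 host genes of small nucleolar RNAs, 6 (37.5%) were high and none low (0.80). Snhg1 followed Gas5 with 25.4, 31.2, 27.1 and 33.1 FPKM in total RNA and 63.1 in 4sU (2.15), while Snhg10 stood at -0.48. Of 25 CLK kinases and SR splicing factors, 9 (36%) were high and none low (0.89). Srsf11 had 13.7, 16.6, 16.9 and 16.8 FPKM in total RNA and 36.2 in 4sU (2.20), and Luc7l2 stood at 1.89. The splicing factors Srsf9 (-0.40) and Tra2b (-0.21) were the lowest of the list. Small nucleolar and Cajal body RNAs had a median of 0.24, with 12 high (11.4%) and 3 low (2.86%) of 105, shares under those of all genes. But 65 of them lay at 50 FPKM or more in total RNA, where all genes together had a median of -0.39. Protein-coding genes at 57.5 to 129.7 FPKM were high in 0.336% and low in 4.12%. Scarna6 and Scarna10, which guide modification of spliceosomal RNAs, were the lowest (-2.34 and -1.60). By annotated class, among genes at 1 FPKM in both kinds, the median was 0.77 for 74 processed transcripts and 0.63 for 52 lincRNAs. It was 0.53 for 76 antisense genes and -0.07 for 11054 protein-coding genes. Over all described genes of these classes, median total RNA was 5.47, 3.82, 5.48 and 18.1 FPKM, in that order. Protein-coding genes at 1 to 10 FPKM in total RNA had a median of 0.53 (n = 3640), close to the lincRNA and antisense medians. A class difference apart from level was not tested.

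**Figure D3:**
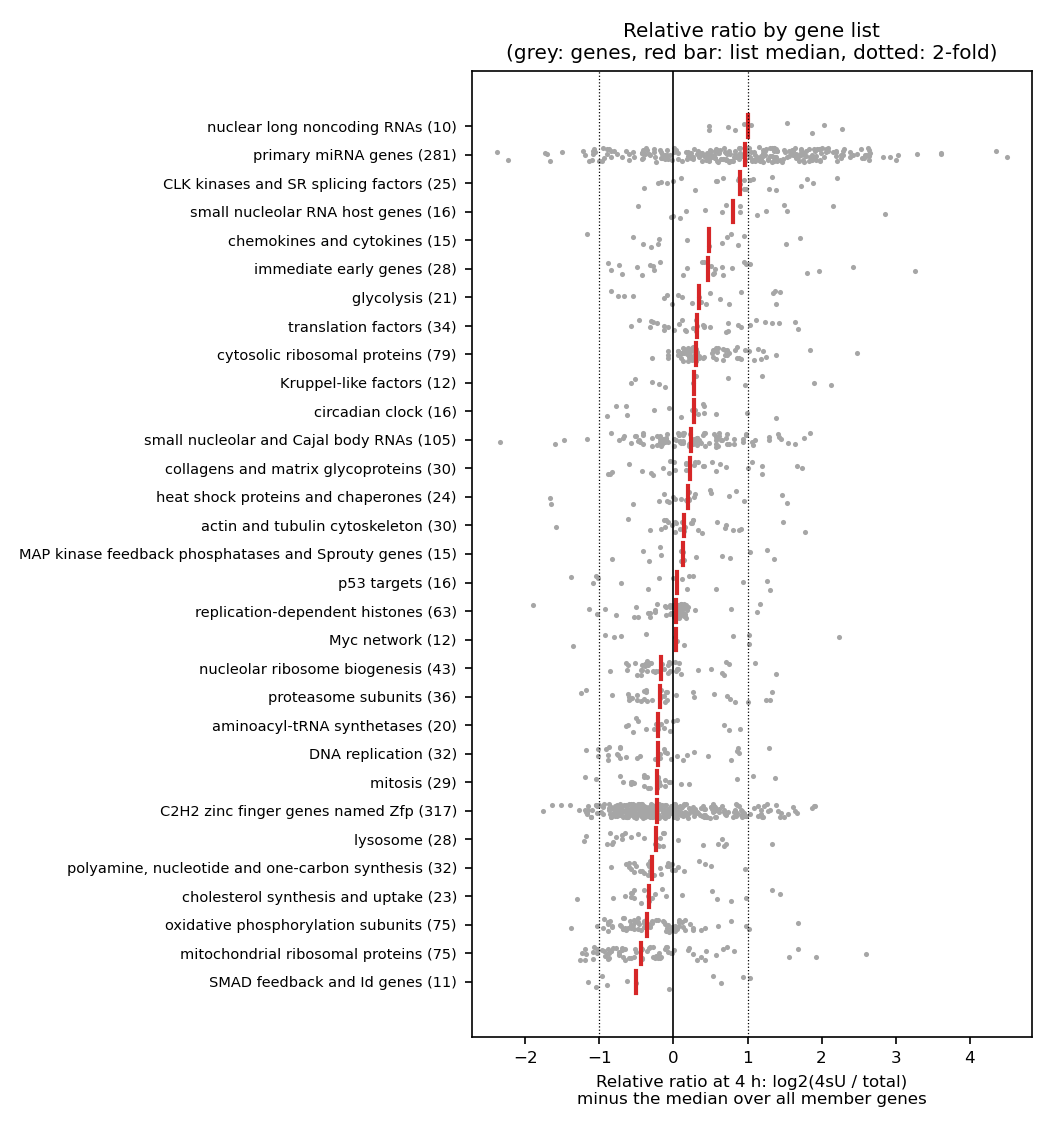
Relative ratio at 4 h (x axis, log2) of the genes of each list (grey points, number of genes in brackets), with the median of the list in red. Nuclear long noncoding RNAs (1.00), miRNA genes (0.97) and splicing factors (0.89) are at the top, and mitochondrial ribosomal proteins (-0.44) and SMAD feedback and Id genes (-0.51) at the bottom.

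Immediate early genes, which respond to growth factors within minutes through unstable mRNAs, had 5 of 28 high and none low (median of 0.46). Without Egr3 and Fosb, which were under 1 FPKM in total RNA, it was 3 of 26 (11.5%, median of 0.40). Of all genes at 1 FPKM in both kinds, 13.1% were high. But the 28 genes had a median total RNA of 29.2 FPKM. Protein-coding genes at 24.2 to 31.2 FPKM were high in 4.12% and low in 13.4%, with a median of -0.30. Egr3 had 0.533, 0.442, 0.432 and 1.06 FPKM in total RNA and 4.69 in 4sU (3.27). Egr1 had 8.66, 9.52, 9.80 and 25.4 in total RNA and 35.4 in 4sU (2.43), and replicate 4 stood above its peers. Egr2 followed at 1.80. The lowest of the list were Jund (-0.89) and Mafk (-0.85). Among 12 Kruppel-like factors, 3 (25%) were high and none low, against 14.2% and 7.27% of all genes, led by Klf3 (2.13) and Klf5 (1.90). Of 11 SMAD feedback and Id genes, 1 was high and 2 were low, and the Id genes, targets of BMP signalling, differed among themselves. Id1 had 62.3, 51.0, 70.8 and 32.2 FPKM in total RNA and 11.3 in 4sU (-1.16), and Id3 was low as well (-1.05). Id2 stood at -0.96 and did not reach 2-fold, and Id4, at a mean of 1.17 FPKM in total RNA, stood at 0.53.

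Myc itself was among the high genes. It had 7.92, 9.51, 11.4 and 14.5 FPKM in total RNA at 4 h and 25.2 in 4sU, a relative ratio of 2.23. At 0 h the values were 24.4, 29.7, 20.3 and 23.0 in total RNA and 33.1 in 4sU, a relative ratio of 1.58. Total Myc RNA fell without overlap of the groups, by 1.15 on the log2 scale (limma, SE of 0.19, adjusted p = 0.000875, n = 4 against 4). The 4sU values differed by -0.39 on the same scale, with 1 library per time and no test. Whether reads of MycER are counted under Myc is not given in the sources used here. Of the other members of the Myc network, the Max partner Mga (1.02) was high, and Mxd4, a Max partner that represses Myc targets, was low (-1.35).

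Lists of the growth machinery had medians on either side of the median gene. Of 79 cytosolic ribosomal protein genes, 9 (11.4%) were high and none low (median of 0.30), and of 34 translation factors 7 (20.6%) were high and none low (0.31), where 14.2% of all genes were high and 7.27% low. Rps24 had 18.1, 15.0, 22.3 and 17.2 FPKM in total RNA and 49.9 in 4sU (2.48), and Rpl11 stood at 1.84. Ribosomal protein genes share reads with processed pseudogenes, so single values are uncertain. Eif3a, the largest subunit of an initiation factor, had 29.7, 27.2, 31.9 and 29.2 FPKM in total RNA and 44.6 in 4sU (1.64). Of 75 mitochondrial ribosomal protein genes, 10 (13.3%) were low and 4 (5.33%) high (-0.44). Mrpl13 was an exception at 2.60. Of 75 subunits of oxidative phosphorylation, 2 were high and 2 low (2.67% each, median of -0.36), with Ndufv1, a complex I subunit, the lowest (-1.39). Nucleolar factors of ribosome assembly, a classical Myc target group, had a median of -0.17, with Ppan (1.38) and Npm1 (1.09) the only high genes of 43. None of 32 polyamine, nucleotide and one-carbon genes or of 20 aminoacyl-tRNA synthetases was high or low. Most genes of the ribosomal protein (70), oxidative phosphorylation (59) and nucleolar (31) lists lay at 50 FPKM or more in total RNA. So did 26 translation factors, 23 polyamine, nucleotide and one-carbon genes and 12 aminoacyl-tRNA synthetases. All genes together had a median of -0.39 there. Protein-coding genes at 57.5 to 129.7 FPKM were high in 0.336% and low in 4.12%, so few calls are usual at that level. The median total RNA of the mitochondrial ribosomal list was 49.2 FPKM, and protein-coding genes at 41.0 to 57.5 FPKM had a median of -0.55 (n = 1189). No difference between these lists was tested.

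Structural and signalling genes differed within their lists. Among 30 collagen and matrix genes, 6 (20%) were high and none low, where 14.2% of all genes were high and 7.27% low. Col1a2, a chain of type I collagen, had 22.7, 25.9, 26.9 and 28.2 FPKM in total RNA and 42.0 in 4sU (1.73), whereas the basement membrane chains Col4a1 (-0.88) and Col4a2 (-0.86) were the lowest of the list. Among 16 p53 targets, 2 (12.5%) were high and 4 (25%) low. Ccng1 had 56.3, 47.3, 72.4 and 57.6 FPKM in total RNA and 10.4 in 4sU (-1.39), and Sesn2 stood at 1.26. Of 24 chaperones, the constitutive Hspa8 was high (1.54) and the inducible Hspa1a and Hspa1b were low (-1.66 and -1.67), though these near-identical genes may share reads. Of 317 zinc finger genes named Zfp, 24 (7.57%) were high and 19 (5.99%) low (-0.23), both under the shares of all genes.

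Genes with a longer exonic length, counted as the union of exons over all annotated transcripts, had higher ratios. In 5 equal bins of 11890 protein-coding genes by exonic length the median relative ratio was -0.26, -0.23, -0.16, 0.02 and 0.43, and among genes at 10 to 30 FPKM in total RNA it went from -0.50 in the shortest to 0.35 in the longest bin. Spearman's rho over these genes was 0.26 with exonic length, 0.15 with gene span, 0.17 with exon number and -0.02 with the U content of exons, as a description since genes are not replicates. The U content bounds how much 4sU an RNA can take up. Among genes at 10 to 30 FPKM in total RNA, the median went from -0.15 in the bin poorest in U to 0.04 in the richest, the other way from the rho over all levels. The level of total RNA moved most (rho of -0.50), but it is also the denominator of the ratio.

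The pattern at 4 h was largely present before OHT. At 0 h, 12981 genes qualified and the median log2 ratio was -1.14. There 2054 genes (15.8%) were high and 1114 (8.58%) low. Over 12648 genes measured at both times, ratios at 4 h and 0 h correlated with an r of 0.948 and a rho of 0.948. High at both times were 1545 genes, 85.1% of the high genes at 4 h and 75.2% of those at 0 h. Low at both times were 701, 75.1% and 62.9% of the respective genes. No gene was high at 4 h and low at 0 h, and 2 were the reverse.

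Since the kinds of RNA could be compared across times, a limma fit set 2 4sU libraries against 8 total RNA libraries of 0 h and 4 h, with time as a covariate. Kind of RNA is fully confounded in it with preparation and counting. Of 13187 genes, 687 (5.21%) were higher and 9829 (74.5%) lower in 4sU on the deposited scale, and 3496 (26.5%) and 5713 (43.3%) after median ratio scaling. By limma on the deposited scale, Myc was higher in 4sU by 0.83 (SE of 0.21, adjusted p = 0.00141), and without the 4sU library of 4 h its adjusted p by limma was 0.136. On the scaled values, 18 of 25 splicing genes were higher and 3 lower, 31 of 79 ribosomal protein genes were higher and 1 lower, and 9 of 75 mitochondrial ribosomal protein genes were higher and 55 lower. On the deposited scale those lists gave 5 and 11, 3 and 65, and 4 and 70, so the direction of the splicing and ribosomal protein lists depends on the scaling, while most mitochondrial ribosomal protein genes were lower on both.

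Few genes changed their ratio between 0 h and 4 h. The shift, the log2 ratio at 4 h minus that at 0 h, equals the change in 4sU minus the change in total RNA. Over 11956 genes its median was 0.07, and the 5th and 95th percentiles were -0.31 and 0.49. These genes had at least 1 FPKM in the higher 4sU library and in the total RNA mean of each time. The shift was at least 2-fold upward in 55 genes (0.46%) and downward in 27 (0.226%). Small RNA genes, 347 of those measured, supplied 21 of the 55 and 18 of the 27. Without OHT_4h replicate 4 there were 85 upward.

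The 10 largest upward shifts among named genes at 5 FPKM or more in 4sU were 0.85 to 1.19. Since the shift contains the change in total RNA, the changes of genes picked by it are given here as a description, with no test. In 7 of these genes total RNA was lower at 4 h, and the 4sU value differed less between the times. Mt2, a metal-binding metallothionein, had 22.2, 18.6, 16.6 and 14.0 FPKM in total RNA at 0 h and 7.77, 7.37, 11.9 and 11.6 at 4 h, without overlap, and 5.29 and 6.85 in 4sU. Nfkbie, an inhibitor of NF-κB, had 15.0, 22.8, 17.5 and 16.2 FPKM at 0 h and 5.67, 5.66, 7.97 and 12.0 at 4 h, and 5.19 and 4.69 in 4sU. Lif, a cytokine of the interleukin-6 family, had 33.9, 31.1, 27.4 and 21.7 FPKM at 0 h and 8.40, 11.2, 12.1 and 11.4 at 4 h, and 11.6 and 8.87 in 4sU. In all 3 every total RNA library at 4 h lay below every library at 0 h. The fitted change in total RNA was -0.86 (SE of 0.24) in Mt2, -1.19 (SE of 0.28) in Nfkbie and -1.36 (SE of 0.32) in Lif on the log2 scale.

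Clec2d, a C-type lectin, had 30.3, 26.5, 30.7 and 25.7 FPKM in total RNA at 0 h and 9.47, 11.3, 16.8 and 19.3 at 4 h, and 10.4 and 9.86 in 4sU. Cdsn, an adhesion protein of the skin, had 13.4, 14.3, 12.8 and 12.0 FPKM at 0 h and 4.59, 6.55, 7.40 and 7.93 at 4 h, and 5.19 and 4.85 in 4sU. In both the groups of total RNA did not overlap. Cldn1, a tight junction protein, had 25.9, 26.4, 21.3 and 32.9 FPKM at 0 h and 4.92, 6.10, 6.72 and 26.9 at 4 h, and 5.47 and 4.31 in 4sU. Replicate 4 overlaps the 0 h group, and without it the shift was 1.77 in place of 0.90. Gpr30, an estrogen-responsive receptor, had 9.27, 10.6, 8.89 and 10.1 FPKM at 0 h, 3.88, 6.42, 6.21 and 6.82 at 4 h, and 4.31 and 5.34 in 4sU. At 8 h the mean total RNA of Mt2 (13.7 ± 2.63, SD, n = 4), Nfkbie (13.3 ± 4.87), Cldn1 (20.8 ± 3.38), Clec2d (22.3 ± 6.53) and Cdsn (11.7 ± 2.95) was above that at 4 h. Values of Lif and Gpr30 at 8 h are not given here. Picking genes by their shift favours a low total RNA at 4 h, so a higher mean at 8 h is not particular to them. All 372 genes that fell in total RNA at 4 h had a median change of -0.91 then and of -0.69 at 8 h.

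In the other 3 genes the 4sU value was higher at 4 h. Lgalsl, a galectin-like gene, had 6.07 FPKM in 4sU at 0 h and 17.2 at 4 h, and 44.8, 37.9, 45.4 and 36.7 against 48.2, 52.9, 56.6 and 68.8 in total RNA. Glul, the glutamine synthetase, had 4.14 and 14.0 FPKM in 4sU, and 40.9, 31.6, 39.4 and 32.0 against 53.2, 57.9, 62.3 and 68.6 in total RNA. The fitted change in total RNA was 0.74 (SE of 0.13) in Glul and 0.45 (SE of 0.13) in Lgalsl. For both, 4sU thus differed more between times than total RNA did. Hist1h2ba, a histone H2B gene, had 12.9 and 22.4 FPKM in 4sU, and its total RNA of 41.6 to 48.5 FPKM at 4 h overlapped the 0 h group.

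**Figure D4:**
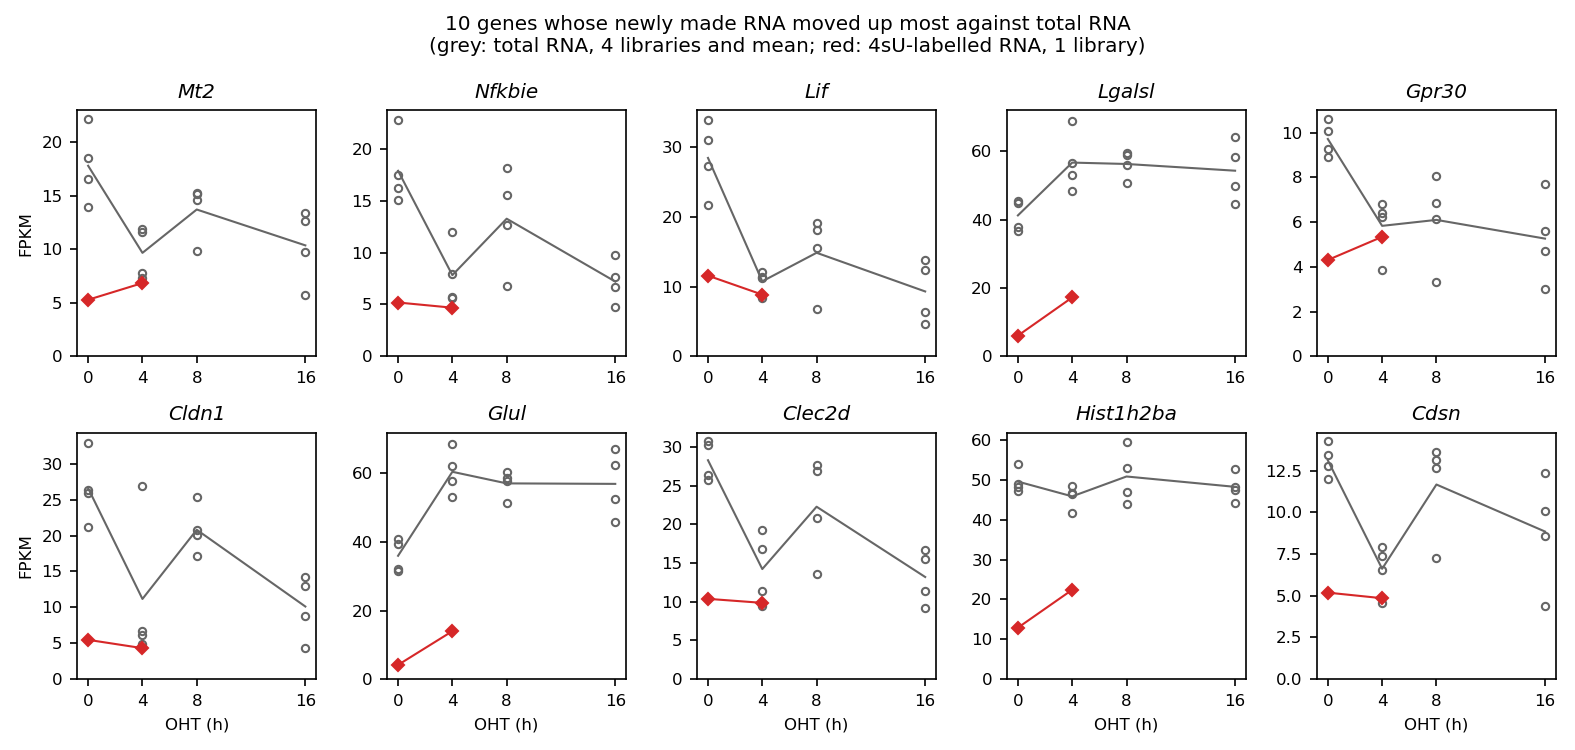
FPKM (y axis) against hours of OHT (x axis) of the 10 named genes with the largest upward shift. Grey circles are the 4 total RNA libraries with their mean as a line, and red diamonds are the lone 4sU library at 0 h and 4 h. In Mt2, Nfkbie, Lif, Gpr30, Cldn1, Clec2d and Cdsn the grey line drops at 4 h and the red line moves less, and in Lgalsl, Glul and Hist1h2ba the red line climbs.

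Lists of signalling genes differed in their shift. Immediate early genes had a median shift of 0.32 (26 genes), from a median change of -0.01 in 4sU and -0.39 in total RNA, against a shift of 0.07 over all genes. Chemokines and cytokines had a median shift of 0.38 (15 genes), from -0.24 in 4sU and -0.61 in total RNA. MAP kinase feedback genes had 0.17 (15 genes), Kruppel-like factors 0.05 (12 genes, 5 above the median of all genes) and SMAD feedback and Id genes -0.01 (10 genes). Genes named below were picked by their shift, so their changes have no test. In total RNA 6 of 27 immediate early genes fell and none rose at 4 h by limma, against 1.9% of all genes called up and 2.88% called down. At an unadjusted p under 0.05, 16 fell and 0 rose, against 1342 and 780 of all 12934 genes. After median ratio scaling 8 fell and none rose, against 5.71% up and 5.56% down of all genes. At 8 h 4 fell and none rose (1.21% up and 0.982% down of all genes), and at 16 h 14 fell and none rose (1.76% up and 7.75% down). Btg2, an antiproliferative gene, had 12.3, 11.9, 14.2 and 11.8 FPKM in total RNA at 0 h and 5.01, 5.74, 7.04 and 7.10 at 4 h, and its 4sU values were 3.71 and 3.19. Dusp6, a phosphatase that shuts off ERK signalling, had 35.5, 41.5, 33.4 and 50.1 FPKM at 0 h and 15.9, 21.4, 20.7 and 30.7 at 4 h in total RNA, and 12.5 and 11.5 in 4sU. Its relative Dusp5 went from 25.6 to 10.8 in 4sU while its total RNA mean went from 41.1 to 18.5, so its shift was -0.08. Of 15 chemokines and cytokines, 8 fell in total RNA by limma at 4 h, 2 at 8 h and 9 at 16 h. Ccl7, a monocyte attractant, had 35.2, 27.6, 29.7 and 24.4 FPKM in total RNA at 0 h and 9.10, 11.7, 11.2 and 14.6 at 4 h, and 2.47 and 2.10 in 4sU. Ccl5 had the largest shift of the list (1.38), but it rests on OHT_0h replicate 4 (28.6 FPKM, against 0.799 to 2.50 in the others) and was -0.53 without it. Fas, a death receptor among the p53 targets, had a mean of 9.17 FPKM at 0 h and 4.79 at 4 h in total RNA, and 1.29 and 2.04 in 4sU (shift of 1.37).

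Replication-dependent histones had the largest median shift of the lists with over 30 genes (0.45, 60 genes), from a median change of 0.41 in 4sU and of -0.05 in total RNA. None of 63 passed the limma test in total RNA at 4 h, where 1.9% of all genes were up and 2.88% down. At an unadjusted p under 0.05 there were 0 (1 up and 0 down after median ratio scaling). Of all 12934 genes, 780 were up and 1342 down at that p (1616 and 1427 after scaling). Of the 63, 49 lay at 50 FPKM or more. Histone genes are near-identical copies, so single values are uncertain. Cholesterol synthesis genes had a median change of 0.42 in 4sU and 0.14 in total RNA (23 genes, shift of 0.17). Fdps, which makes farnesyl pyrophosphate, had 16.8 and 28.1 FPKM in 4sU, and 73.1, 99.95, 81.4 and 92.9 against 81.0, 81.0, 90.9 and 89.0 in total RNA. Mvd, of the same pathway, had 3.47 and 5.50 in 4sU and means of 31.9 and 30.1 in total RNA. In total RNA 2 of the 23 rose and none fell by limma at 4 h, against 1.9% up and 2.88% down of all genes.

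Circadian clock genes had a median shift of -0.09 (16 genes), with Per2 and Per1 the lowest. Per2, a repressor of the clock, had 4.21 FPKM in 4sU at 0 h and 1.55 at 4 h. Its total RNA was 6.29, 6.22, 5.00 and 4.36 at 0 h and 5.26, 4.16, 7.22 and 1.79 at 4 h, which overlap. Per1 had 5.76 and 3.35 in 4sU (shift of -0.67). Nr1d1, a clock repressor whose gene is active out of phase with Per2, had 9.55 and 21.8 FPKM in 4sU, and total RNA means of 15.9 and 30.5.

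The 10 largest downward shifts among named genes were -1.15 to -0.70, all at total RNA means of at most 6.60 FPKM at 4 h. Leap2, a hepatic peptide gene, had 9.96 and 3.13 FPKM in 4sU, and 2.90, 4.18, 1.60 and 4.95 against 1.46, 2.28, 4.13 and 2.19 in total RNA. Slc25a29, a mitochondrial carrier of basic amino acids, had 5.57 and 2.34 in 4sU, and its total RNA groups overlapped. Tnfrsf4, a costimulatory receptor, had 5.46 and 3.59 in 4sU, and means of 4.87 and 6.60 in total RNA. Ghrl, Efcab9, Eml6, Prdm10, Arid4a, Kcnk7 and Gnrh1 made up the rest.

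Changes in total RNA and in 4sU were compared next, since these share no library. In total RNA, 246 of 12934 genes rose and 372 fell at 4 h (limma, adjusted p under 0.05). Without the 4 libraries numbered 4 (a choice made after the data were seen) it was 409 and 849. With the replicate number as a block it was 408 and 697, and after median ratio scaling 738 and 719. Leaving out 1 library gave 145 to 289 that rose, with the count over 1.5 times lower without OHT_0h replicate 1 or OHT_4h replicate 2 or 3. It gave 116 to 508 that fell, with the count over 1.5 times lower without any 1 of the OHT_0h libraries or OHT_4h replicate 1 or 2. Of the 246 that rose, 243 were also higher in 4sU at 4 h than at 0 h, and the median change was 0.87 in 4sU and 0.83 in total RNA. Of the 372 that fell, 345 were lower in 4sU, but the median change was -0.46 (quartiles of -0.74 and -0.26) in 4sU and -0.91 in total RNA. Over 11609 genes without small RNAs the median change in 4sU was 0.03 (quartiles of -0.15 and 0.19). Genes that fell in total RNA thus differed less between the 4sU libraries, and genes that rose differed about as much. Total RNA changes picked by a call on themselves tend to be overstated, and this holds for both directions. With the 849 genes called without the libraries numbered 4, the medians were -0.37 and -0.69, and with the 719 called after median ratio scaling -0.41 and -0.73. Over 11956 genes the changes correlated with an r of 0.673 and a rho of 0.616, as a description.

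Chosen from the 4sU side, 113 genes without small RNAs were at least 2-fold higher at 4 h than at 0 h, with a median of 1.19 in 4sU and 0.88, 0.84 and 0.83 in total RNA at 4, 8 and 16 h. Of these, 83 rose in total RNA by limma at 4 h. A further 37 were at least 2-fold lower, with a median of -1.14 in 4sU and -1.01, -0.90 and -1.28 in total RNA, and 24 of them fell by limma. Of all 11609 genes without small RNAs, 211 rose and 303 fell in total RNA by limma at 4 h. The share past 2-fold in 4sU among all 11956 genes, small RNAs included, was 1.07% upward and 0.527% downward. These 4sU changes were picked by their own size in the same way. Total RNA at 8 h and 16 h was measured against the same 0 h libraries as at 4 h.

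**Figure D5:**
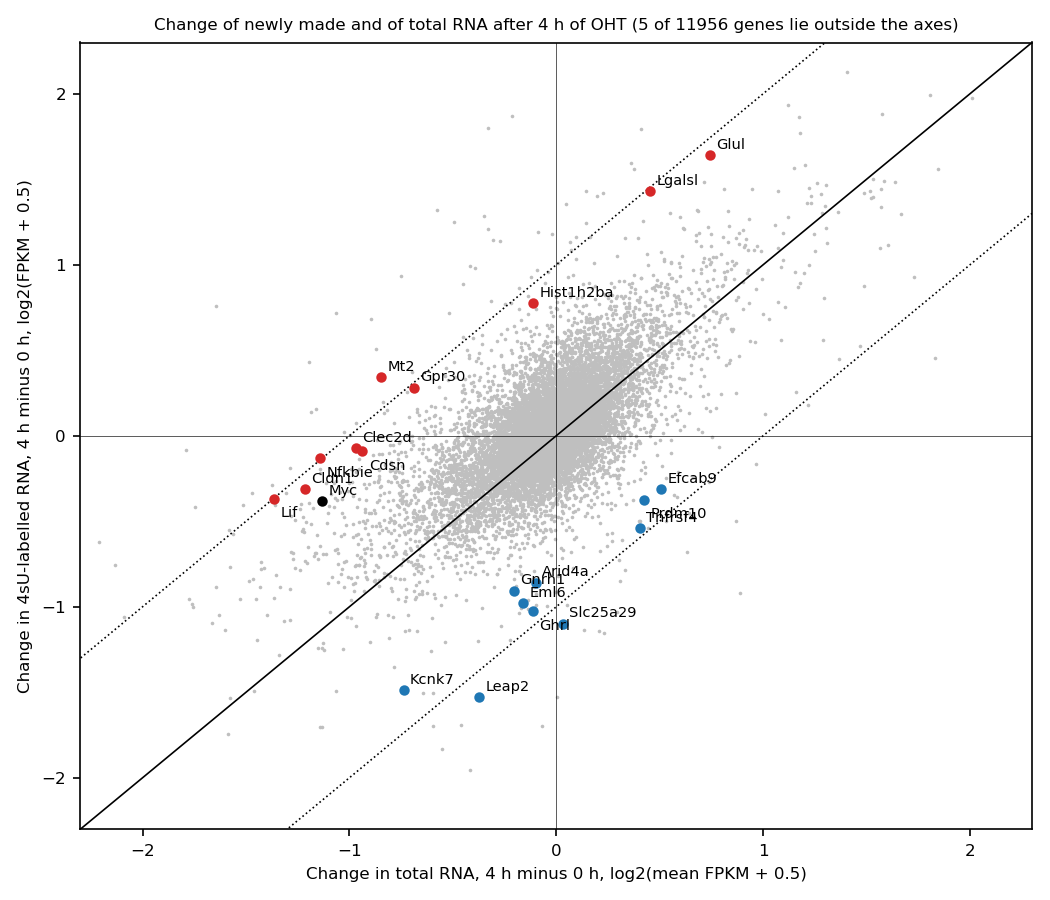
Change from 0 h to 4 h of OHT in 4sU (y axis, log2 of FPKM + 0.5) against the change in total RNA (x axis, same scale) for 11956 genes, 5 of them outside the axes. The solid line marks equal change and the dotted lines a shift of 2-fold. The 10 named genes with the largest upward shift (red) and Myc (black) lie above the line, 8 of the 11 left of 0 in total RNA by over 0.6, and the 10 with the largest downward shift (blue) lie below it.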

How the data were processed

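Fibroblast files list 1 FPKM value per gene and library, as deposited. Per the submitters' processing notes, TopHat2 2.0.8, TopHat, SAMtools and HTSeq 0.5.3p9 and the mm9 build were used. The annotation and strand setting are not given in the sources used here. The 11 B cell samples were not used. The deposited FPKM were taken as log2(FPKM + 0.5). Ratios compare 4sU with the mean FPKM of total RNA, on genes with at least 1 FPKM in either. Total RNA was tested over 16 libraries with limma 3.58.1 (trend and robust) in R 4.3.3, on genes at 1 FPKM in 4 libraries, and both kinds at 0 h and 4 h on genes at 1 FPKM in 2 libraries. P-values are two-sided, adjusted by Benjamini-Hochberg over all genes tested. The fit was tested on simulated data with 200 changed genes. Other steps used Python 3.11.15, pandas 2.3.3, NumPy 2.4.6, SciPy 1.17.1 and Matplotlib 3.10.9. Gene lengths and classes came from GENCODE by symbol (276 genes had no match). Coordinates of different builds were not joined.

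The members and the 37 gene and marker lists were chosen with earlier results of these data known. Named genes are Myc, the 12 highest and 12 lowest ratios at 4 h and the 10 highest and 10 lowest shifts at 5 FPKM or more, leaving out small RNAs and predicted or clone-named genes, 2 at each end per list described for the ratio and for the shift, and the 6 highest miRNA and small nucleolar RNA genes in 4sU. MiRNA genes with printed sequences, the let-7 and miR-17 sets and Dusp5 were singled out after their values were seen. Alternatives were pseudocounts of 0.1 and 1, a filter of 5 FPKM or none, median centring or scaling, quantile normalization, a 4-fold threshold, leaving out each library in turn, and a replicate block. Some genes that the rule names are not reported here.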

Additional observations from a re-analysis of the deposited data

Results flagged for a closer look

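Among 157 groups of 4 libraries whose values are given for 120 named genes, a library stood apart from the other 3 in 9, and chance alone gives about 1 in 20 such groups. At 4 h, OHT_4h replicate 4 was high in Cldn1 (26.9 FPKM, against 4.92 to 6.72 in the others), Egr1 (25.4, against 8.66 to 9.80), Egr3 (1.06, against 0.432 to 0.533) and Mir20a (50.7, against 20.6 to 25.5). OHT_4h replicate 1 was low in Srsf11 (13.7 FPKM, against 16.6 to 16.9). OHT_0h replicate 4 was high in Ccl5 (28.6 FPKM, against 0.799 to 2.50) and low in Prdm10 (3.92, against 4.80 to 4.96). OHT_8h replicate 4 was low in Cdsn (7.28 FPKM, against 12.7 to 13.6) and Mt2 (9.81, against 14.6 to 15.3).

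In Fas, Gpr30 and Mt2 the kinds of RNA moved in opposite directions, of 32 named genes compared between 0 h and 4 h. The 4sU value was higher at 4 h than at 0 h by 0.51 in Fas, 0.28 in Gpr30 and 0.34 in Mt2 on the log2 scale, while every total RNA library at 4 h lay below every library at 0 h. These genes were named by their shift, the change in 4sU minus that in total RNA, which favours opposite movement. How often this occurs among all genes was not counted. With 1 4sU library per time, the difference was not tested.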

How the results depend on the processing

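On the deposited scale, 133 genes at 4 h were higher in 4sU with a pseudocount of 1, 113 with a filter of 5 FPKM, 12 at 4-fold and 1816 after centring on the median ratio, and 1101 were lower at 4-fold and 933 after centring. At 0 h, 136 were higher with the filter of 5 FPKM, and 2054 were higher and 1114 lower after centring. Relative to the median, the filter of 5 FPKM left 537 genes low at 4 h and 685 at 0 h. Without a filter, which adds genes near 0 in both kinds and raises the median, 538 were high and 4455 low at 4 h, and 761 and 4629 at 0 h. At 4-fold, 218 were high and 12 low at 4 h. Shifts numbered 94 upward and 44 downward with a pseudocount of 0.1, 34 upward with 1, 6 and 7 with the filter of 5 FPKM, and 173 and 61 without a filter. Leaving out 1 library gave 47 to 85 upward shifts. The shift of Ccl5 ranged from -0.53 (without OHT_0h replicate 4) to 1.74.

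The fit of both kinds called 392 genes higher with the filter of 5 FPKM, 3496 higher and 5713 lower with median ratio scaling, 4151 and 4738 with quantile normalization, and 347 to 780 higher when 1 library was left out, with the fewest without 4sU_0h (347) and 4sU_4h (427). Total RNA at 4 h against 0 h gave 738 genes up and 719 down with median ratio scaling, 858 and 905 with quantile normalization, 409 and 849 without the libraries numbered 4 (added after seeing the data), and 794 down when OHT_0h and OHT_4h were fitted alone. Leaving out 1 library gave 145 to 289 up and 116 to 508 down, with the fewest up without OHT_4h replicate 2 or 3 and the fewest down without OHT_4h replicate 1. Same-numbered libraries of 0 h and 4 h deviated from their groups with correlations of 0.211, 0.157, 0.0169 and 0.432 over 12669 genes. All were positive, while pairs of unlike number ran from -0.382 to 0.242. Not every library correlated best with its own number. The main fit did not pair libraries by number, and whether the numbers mark a shared effect was not tested. With the replicate block, 408 genes were up and 697 down, against 246 and 372 without it. The cause of these differences was not tested, apart from filters, which change the genes counted. Single ratios of named genes moved by more than 1 SD of total RNA in 402 repeats, stayed within it in 2189 and reversed in none, and depth limits ratios of genes near 1 FPKM.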

Other observations

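Cell division lists had medians slightly under the median gene at 4 h, but above those of protein-coding genes of like total RNA. Of 32 DNA replication genes 1 (3.12%) was high and 3 (9.38%) low (median relative ratio of -0.21). Of 29 mitosis genes 2 were high and 2 low (6.9% each, median of -0.22), against 14.2% high and 7.27% low of all genes. The replication and mitosis lists had a median total RNA of 40.3 and 57.6 FPKM. Protein-coding genes at 31.2 to 41.0, 41.0 to 57.5 and 57.5 to 129.7 FPKM had medians of -0.41, -0.55 and -0.37. Of these, 2.1%, 1.18% and 0.336% were high. Pole, the catalytic subunit of polymerase epsilon, had a mean of 11.9 FPKM in total RNA and 14.1 in 4sU (1.29), while Pold1, that of polymerase delta, had 43.8 and 10.0 (-1.02). Of the mitosis genes, Prc1 (1.37) and Birc5 (1.08) were high, and the cyclin Ccnb2 (-1.20) and Nusap1 (-1.05) were low. None of the 32 replication genes passed the limma test in total RNA at 4 h, where 1.9% of all genes were up and 2.88% down. At an unadjusted p under 0.05 there were 1 up and 1 down, against 780 up and 1342 down of all 12934 genes. With so few genes, no call is near the share of all genes.

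Glycolysis genes had a median of 0.34, with 4 of 21 (19%) high and none low, against 14.2% and 7.27% of all genes. Pkm, the pyruvate kinase gene, had 54.2, 64.8, 55.7 and 53.3 FPKM in total RNA and 72.1 in 4sU (1.39), and the glucose transporter Slc2a1 stood at -0.75. Of 30 actin and tubulin cytoskeleton genes, 2 (6.67%) were high, Tpm1 (1.77) and Myl6 (1.48), and 1 (3.33%) was low, Tubb2a (-1.59). Of 28 lysosome genes, Lamp2, a membrane protein, was high (1.32), and Scarb2 (-1.21) was low.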
